A study of Mus musculus with 8 samples.

Results

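The Mage, Xlr and related germline gene families were examined in RNA-seq of mouse fetal testis germ cells. Members were the rows of the count table whose gene ID maps to a symbol beginning with Magea, Mageb, Xlr, Fthl17 or Tex13, or to Nxf2, Nxf3, Nxf7, Slx or Slxl1. This gave 59 of the 55487 genes in the table: 10 Magea, 14 Mageb, 16 Xlr, 9 Fthl17, 5 Tex13, 3 Nxf and 2 Slx genes. Of these, 57 lie on chromosome X, and 18 carry a symbol that marks a pseudogene (-ps). The off-X members are Mageb3 on chromosome 2 and Mageb16-ps2 on chromosome 6.

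The libraries came from C57BL/6 mice, 4 labelled KO (Rhox10-null;Oct4-eGFP+/+) and 4 labelled WT (littermates, Oct4-eGFP+/+). Both groups thus carry the Oct4-eGFP reporter, in which the promoter of the pluripotency gene Oct4 (Pou5f1) marks fetal germ cells with green fluorescence for cell sorting. Rhox10 is a homeobox gene of the X-linked Rhox cluster that acts in the male germline. The fetal age, and whether each library was made from 1 animal or a pool, are not given in the sources used here, so p-values measure the spread between libraries, which may be technical.

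These families are known as germline, or cancer-testis, genes: they are silent in most adult somatic tissues, are active in germ cells, and are often switched on in tumours. Type I MAGE proteins (Magea, Mageb) bind RING-type ubiquitin ligases. The XLR and SLX proteins are relatives of the synaptonemal complex protein SYCP3, NXF2 is a germline relative of the general mRNA export receptor NXF1, and FTHL17 proteins resemble the heavy chain of ferritin. Many of these genes arose by recent duplication, so that near-identical copies share reads.

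Levels are CPM, that is counts relative to a library's total after TMM scaling, and fold changes are log2 of KO-labelled over WT-labelled libraries from edgeR's quasi-likelihood test. Calls required an adjusted p (Benjamini-Hochberg, over every gene tested) under 0.05. Library totals were 16346977 to 20311338 counts. Rhox10 had 18, 25, 19 and 17 counts in the WT-labelled libraries and 14, 10, 18 and 22 in the KO-labelled ones (log2 fold change -0.28, adjusted p = 0.767), so its reads do not separate the labels. The germ cell genes Ddx4, an RNA helicase, and Pou5f1 were present, at 44.5 ± 3.40 against 43.4 ± 0.971 CPM (SD, n = 4 per group, adjusted p = 0.8291) and 10.04 ± 0.984 against 11.4 ± 0.772 CPM (adjusted p = 0.356). Of 11 germ cell markers tested, Dazl and Dppa3 rose, and Tdrd1 and Tex101 fell. Genes of other cells were abundant in libraries labelled as purified germ cells: per kb of exon the Leydig cell gene Cyp17a1 stood at 474 CPM and the collagen gene Col1a1 at 451 in the WT-labelled libraries, against 14.8 for Ddx4.

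The Nxf2 promoters are printed first, because Nxf2 had the highest level per length among the members and matched no other gene in sequence. RefSeq (GRCm38.p6) gives Nxf2 a distal and a proximal start on the minus strand, and each sequence covers 250 bases before to 50 bases after the start. Capitals mark the E-box CACGTG in the distal promoter and the E2F element GCGGGAA in the proximal one. MGA with MAX is among the factors that can bind the E-box, and E2F6 among those that can bind the E2F element. MGA, MAX and E2F6 belong to the Polycomb complex PRC1.6, known to silence germline genes in somatic cells. Neither element is particular to that complex.
Nxf2 distal, chrX:134964705-134965004, minus strand: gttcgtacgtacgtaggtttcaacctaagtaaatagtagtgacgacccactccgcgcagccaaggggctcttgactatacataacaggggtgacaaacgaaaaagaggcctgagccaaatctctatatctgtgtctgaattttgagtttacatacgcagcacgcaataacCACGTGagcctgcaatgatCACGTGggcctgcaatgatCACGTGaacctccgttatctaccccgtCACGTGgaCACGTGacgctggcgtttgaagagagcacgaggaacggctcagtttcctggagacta
Nxf2 proximal, chrX:134963848-134964147, minus strand: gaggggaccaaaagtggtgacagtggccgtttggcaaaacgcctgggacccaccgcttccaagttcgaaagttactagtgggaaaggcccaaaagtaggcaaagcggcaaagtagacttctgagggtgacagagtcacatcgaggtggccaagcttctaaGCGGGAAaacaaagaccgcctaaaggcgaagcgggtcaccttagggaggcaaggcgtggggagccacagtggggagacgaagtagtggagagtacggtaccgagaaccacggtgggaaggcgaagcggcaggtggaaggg
The 3 Xlr subfamilies that lie side by side are shown by 1 copy each, with CpG dinucleotides, the sites of DNA methylation, in capitals; all 3 are on the plus strand.
Xlr5b, chrX:73148591-73148890: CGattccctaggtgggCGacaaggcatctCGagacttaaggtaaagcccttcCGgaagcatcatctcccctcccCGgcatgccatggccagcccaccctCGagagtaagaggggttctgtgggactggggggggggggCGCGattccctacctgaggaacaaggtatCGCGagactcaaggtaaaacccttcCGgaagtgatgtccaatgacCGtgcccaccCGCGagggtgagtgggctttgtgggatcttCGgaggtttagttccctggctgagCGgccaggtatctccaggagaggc
Xlr4b, chrX:73214083-73214382: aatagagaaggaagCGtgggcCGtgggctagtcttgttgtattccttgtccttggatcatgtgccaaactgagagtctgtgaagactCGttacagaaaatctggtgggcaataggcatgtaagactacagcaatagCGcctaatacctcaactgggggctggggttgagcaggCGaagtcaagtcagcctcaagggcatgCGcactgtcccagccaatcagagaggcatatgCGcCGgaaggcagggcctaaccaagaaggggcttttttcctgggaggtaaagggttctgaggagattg
Xlr3b, chrX:73191929-73192228: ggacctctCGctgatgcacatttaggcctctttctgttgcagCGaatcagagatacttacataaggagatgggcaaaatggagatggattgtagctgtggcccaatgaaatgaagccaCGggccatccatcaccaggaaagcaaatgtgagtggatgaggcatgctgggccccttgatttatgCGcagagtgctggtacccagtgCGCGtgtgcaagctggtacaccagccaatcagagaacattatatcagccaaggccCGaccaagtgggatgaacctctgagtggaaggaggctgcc

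Promoters were listed for 39 of the 59 members, 41 promoters in all. Both strands were searched for each motif. The E-box occurred in 7.15% of all 32851 promoters of this length and in 1 member gene, Nxf2, whose distal promoter holds 5 copies. At least 5 copies were held by 5 promoters of 3 genes (0.0152% of all). The E2F element occurred in 4.60% of all promoters and in 2 member genes, Nxf2 and Xlr. A cyclic AMP response element, TGACGTCA, occurred in 1.79% of all promoters and in 0 members. These matches describe the letters in the window and show no binding. The CpG count was 20 and 17 in the distal and proximal Nxf2 promoters, 16 in Xlr5a and Xlr5b but 1 in Xlr5c, 7 to 8 in Xlr4a, Xlr4b and Xlr4c, and 5 to 7 in Xlr3a, Xlr3b and Xlr3c, against a median of 7 over all promoters (quartiles 3 and 20). The best local alignment of the Xlr5a and Xlr5b promoters was 100% identical over 255 bases, whereas that of the Xlr5c promoter with either of them covered 21 columns with 18 identical bases. The Xlr5c window (chrX:73290466-73290765, minus strand) lies inside its gene (chrX:73282896-73292976). So does the Xlr5a window (chrX:73117653-73117952, minus strand; gene chrX:73107635-73292976), whereas the Xlr5b window spans the 5' end of its own. The CpG counts and the identity thus belong to the starts listed and need not hold at the 5' ends of Xlr5a and Xlr5c. Identity was 98.1% to 98.6% among the 3 Xlr4 promoters and 87.8% to 94.3% among the 3 Xlr3 promoters.

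Of the 59 members, 27 passed the filter on low counts and were tested. Of these, 7 were called lower in the KO-labelled libraries, 0 were called higher and 20 were not called, where 2.80% of all 23190 genes tested were called lower and 2.35% higher. At an unadjusted p under 0.05 there were 12 members, 9 lower and 3 higher (Xlr3a, Xlr3b and Xlr3c), where 8.07% of all genes were lower and 7.53% higher. DESeq2 and limma voom called 0 members higher as well. The 7 called members were Nxf2, Mageb4, Mageb10-ps, Xlr5a, Xlr5b, Xlr5c and Xlr5e-ps. Among the 27 tested members, these same 7 had every KO-labelled library below every WT-labelled one, and 0 had every one above. Over all genes tested, 4.72% lay wholly below and 4.72% wholly above. The Xlr5 copies share reads, as do Mageb4 and Mageb10-ps, so the 7 are not separate results. The fitted fold changes of the tested members had a median of -0.24 on the log2 scale, against 0.00 (0.00198) over all genes tested. Xlr genes were 15 of the 27, and copies within a subfamily share reads, so this median may count 1 read several times. By family the median was -0.26 for Xlr, -0.09 for Mageb, -0.17 for Nxf, -0.41 for Tex13 (1 gene) and 0.30 for Fthl17. The 892 genes of chromosome X that were tested had a median of -0.00141, with 2.91% called lower and 2.13% called higher. In bulk RNA, fewer cells of a type and less RNA per cell cannot be told apart.

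**Figure D1:**
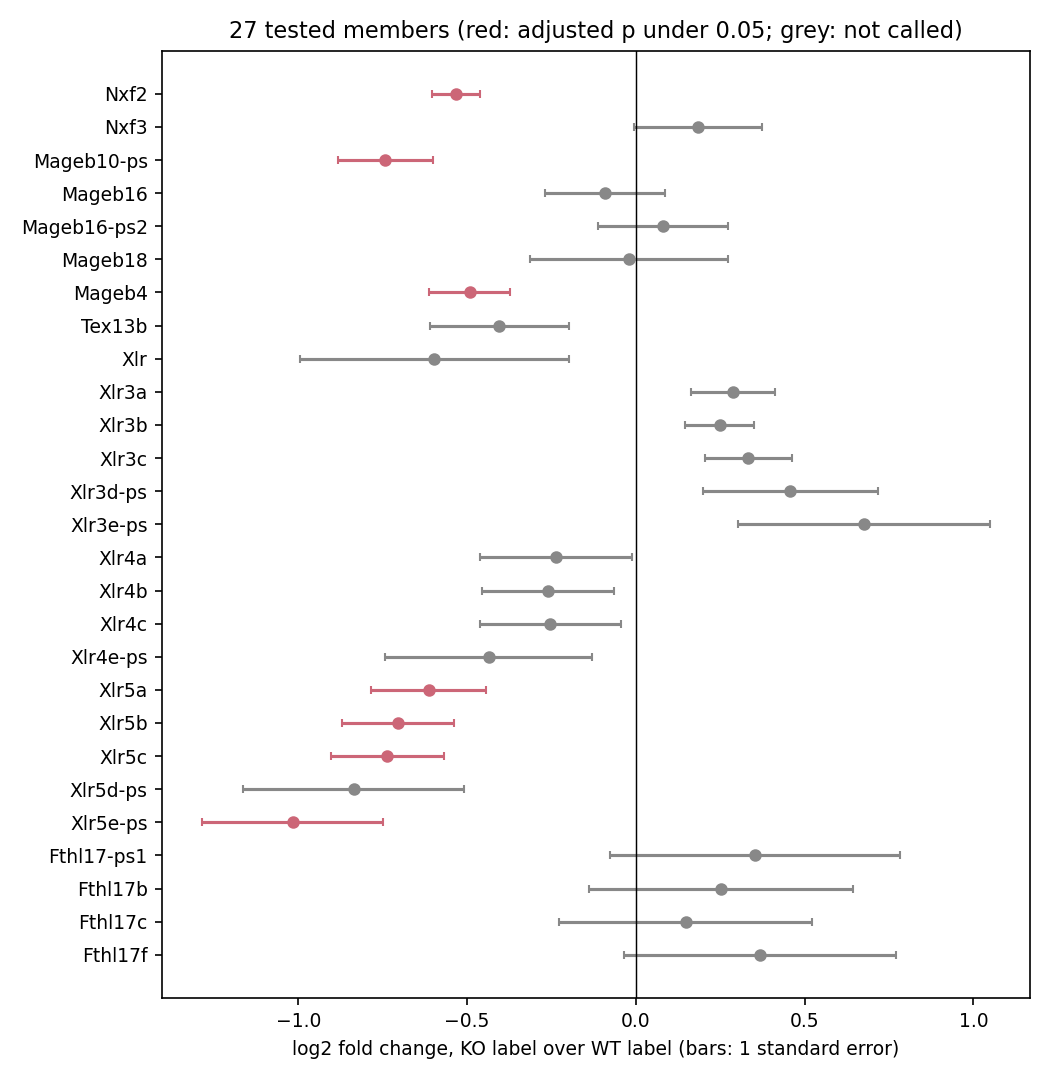
Fitted log2 fold change (KO label over WT label, x axis) of the 27 tested members grouped by family, with bars of 1 standard error. The 7 called members are red and all lie below 0, the 5 Xlr3 copies lie above 0 without a call, and the 4 Xlr4 copies tested lie below 0 without a call.

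The 32 members that were not tested had summed counts over the 8 libraries of 0 to 81, with a median of 22. Magea7-ps, Mageb5, Tex13a and Slx had 0 counts in all libraries. The highest sums were 81 for Xlr4d-ps, 73 for Mageb7-ps, 69 for Mageb16-ps1, 60 for Magea8 and 53 for Mageb3. Without the filter, the 28 of them with a count were tested by edgeR and 0 were called, with 2 at an unadjusted p under 0.05. The lowest p was that of Slxl1 (log2 fold change -1.13, adjusted p = 0.475).

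The members spanned a wide range of levels once counts were divided by exon length. On the scale of CPM per kb, Nxf2 was highest, at 9.91 in the WT-labelled and 6.86 in the KO-labelled libraries. Mageb10-ps followed in the WT-labelled libraries, at 4.70 against 2.79, and then Xlr3c, at 3.47 against 4.36, and Mageb4, at 3.32 against 2.35. The highest member of each other family stood at 0.963 (Tex13b), 0.8292 (Fthl17-ps1), 0.641 (Slxl1) and 0.232 (Magea8) in the WT-labelled libraries.

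**Figure D2:**
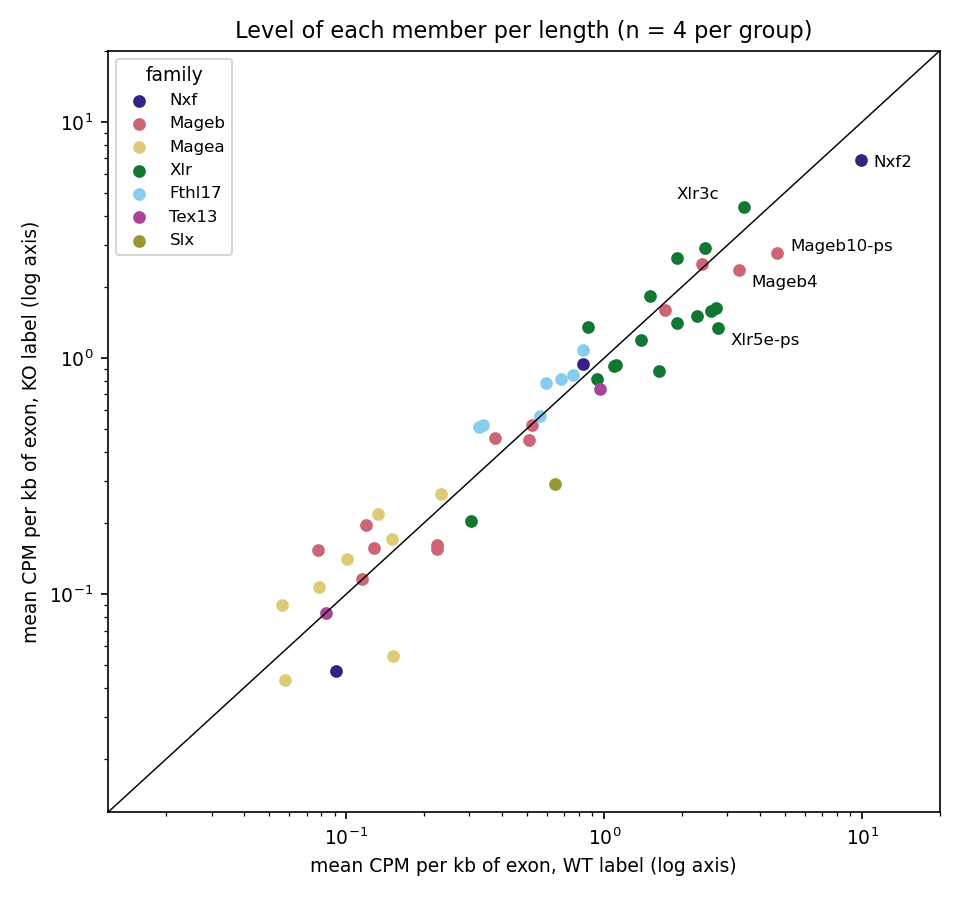
Mean CPM per kb of exon in the 4 WT-labelled (x axis) and 4 KO-labelled (y axis) libraries, both log axes, for the 50 members with a count in both groups; the line marks equal levels. Nxf2 stands apart at the top, and Nxf2, Mageb10-ps, Mageb4 and the Xlr5 copies lie below the line.

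How far a value belongs to its own gene depends on shared sequence, measured as the share of 75-base transcript windows also found in another gene. That share was 0% for Nxf2, Nxf3, Mageb18 and Tex13b, so reads of that length match no other gene. It was 76.2% for Xlr5c, 77.1% for Xlr5a and 86.8% for Xlr5e-ps. Mageb10-ps shared 75.4% of its windows with Mageb4, which shared 45.4% of its own in return. All windows of Mageb16-ps2 (100%) also occur in Mageb16, yet it had 386 counts over the 8 libraries, so reads that cannot be assigned to 1 copy were counted. Copies were therefore also summed by subfamily. A sum may count 1 read at several copies, which overstates its precision. The reason does not hold for every copy summed. The Tex13c copies, Slx and Slxl1, Fthl17a and Fthl17-ps3 share 0% of windows within their subfamilies. With sums in place of copies, 15 of 29 genes or sums were tested, and 4 were called lower, 1 higher and 10 not. Of all 23178 genes or sums tested, 2.78% were called lower and 2.34% higher. The 4 called lower were Nxf2, Mageb4, Mageb10-ps and the Xlr5 sum. Mageb4 and Mageb10-ps were kept apart in this count despite their shared windows, as were Mageb16 and Mageb16-ps2, so it still holds reads that are not separate.

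**Figure D3:**
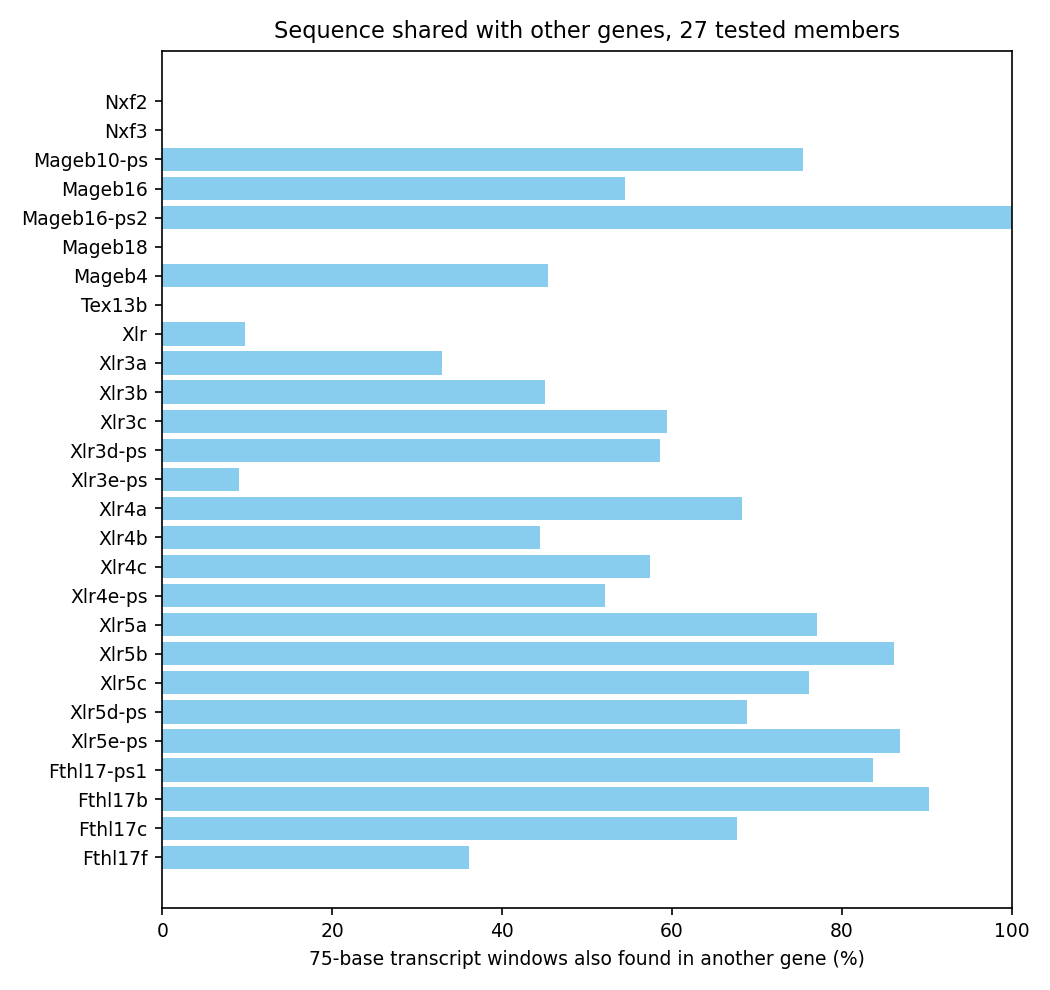
Share of each tested member's 75-base transcript windows that also occur in another gene (x axis, %), in the same family order as the fold changes. Nxf2, Nxf3, Mageb18 and Tex13b have none, whereas the Xlr5 copies lie between 68.8% and 86.8%.

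Nxf2, which encodes an mRNA export factor of germ cells, lies on the minus strand at chrX:134944526-134964754 (GRCm38). It had 408, 509, 484 and 458 counts in the WT-labelled libraries and 311, 291, 341 and 315 in the KO-labelled ones. The groups did not overlap, and every KO-labelled library lay below the lowest WT-labelled one. The level fell from 25.4 ± 0.802 to 17.6 ± 1.19 CPM (SD, n = 4 per group), a log2 fold change of -0.53 ± 0.07 (SE, adjusted p = 1.85e-10), or 1.45-fold. Nxf3, a relative of Nxf2, had 31, 53, 53 and 49 counts against 39, 52, 60 and 56, groups that overlapped (log2 fold change 0.18, adjusted p = 0.732). Nxf7 was not tested, with 1 to 7 counts per library.

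Within 500 kb of Nxf2, 25 other genes were tested and 1 was called, Armcx2, an armadillo-repeat gene, which fell by 0.10 on the log2 scale (adjusted p = 0.0420). Among the general export genes, 11 of the 12 listed were tested, 1 rose, 0 fell and 10 were not called, with a median log2 fold change of 0.03. The gene that rose was Thoc2, a subunit of the THO complex that couples transcription to export, from 257 ± 6.44 to 271 ± 1.79 CPM (log2 fold change 0.08, adjusted p = 0.0324).

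In the Mageb family, 2 of 5 tested members were called lower. Mageb4 encodes a type I MAGE protein and lies at chrX:86250254-86305093 on the minus strand; Mageb10-ps lies at chrX:86299922-86301328, within an intron of Mageb4 on the same strand, and shares no exon base with it. Mageb4 had 143, 174, 163 and 127 counts in the WT-labelled and 93, 74, 121 and 136 in the KO-labelled libraries. On the CPM scale all KO-labelled libraries were lower, with WT replicate 4 the lowest of its group (7.35 CPM) and KO replicate 4 the highest of its own (6.97 CPM). The level fell from 8.29 ± 0.629 to 5.86 ± 1.09 CPM, a log2 fold change of -0.49 ± 0.12 (SE, adjusted p = 0.00276), and did not pass when KO replicate 2 was left out (-0.38, adjusted p = 0.0667).

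Mageb10-ps had 117, 149, 117 and 101 counts against 65, 48, 89 and 82. The groups did not overlap. Its level fell from 6.61 ± 0.726 to 3.93 ± 0.765 CPM, a log2 fold change of -0.74 ± 0.14 (SE, adjusted p = 2.48e-05). Because reads of this pair cannot be fully separated, their counts were summed, a sum chosen after the values were seen. The sum was 260, 323, 280 and 228 against 158, 122, 210 and 218, with a log2 fold change of -0.60 ± 0.09 (SE, adjusted p = 1.69e-07).

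The other Mageb genes gave no call. Mageb16 had a log2 fold change of -0.09 (adjusted p = 0.877), Mageb16-ps2 of 0.08 (adjusted p = 0.904) and Mageb18 of -0.02 (adjusted p = 0.987). All windows of Mageb16-ps2 also occur in Mageb16, so the values of this pair, which was not summed, are not separate results. The summed Mageb1, Mageb2 and Mageb3 had a log2 fold change of -0.01 (adjusted p = 0.995). This sum joins copies that differ in direction, none of them tested singly. Mageb1 went from 0.256 to 0.183 CPM and Mageb2 from 0.370 to 0.257, but Mageb3 from 0.278 to 0.459. Mageb3 shares 17.7% of its windows with the other copies of the sum. None of the 10 Magea genes was tested alone, and Magea8, the highest per length, had 7, 8, 8 and 5 counts against 5, 4, 13 and 10. The sum of the 6 related copies Magea1 to Magea8 had 22, 25, 20 and 10 counts against 33, 8, 23 and 37 (log2 fold change 0.42, adjusted p = 0.545), with KO replicate 2 below all WT-labelled libraries and KO replicates 1 and 4 above them.

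Within 500 kb of Mageb4, 6 other genes were tested and 1 was called, Gk, which encodes glycerol kinase and rose by 0.34 on the log2 scale (adjusted p = 0.0421). Of 8 type II MAGE genes, which are more broadly expressed than type I genes, 1 fell and 7 were not called, with a median of -0.07. The one that fell was Maged1, from 526 ± 8.04 to 497 ± 2.20 CPM (log2 fold change -0.08, adjusted p = 0.00367). Of 9 tested genes for ubiquitin ligase partners of MAGE proteins, 0 were called in either direction. The highest were Trim28, a RING-type corepressor, at 220 ± 4.31 against 224 ± 4.75 CPM, and Usp7, a deubiquitinase, at 213 ± 3.10 against 220 ± 4.33 CPM.

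In the Xlr family, 15 of 16 members were tested and 4 were called lower, all of them Xlr5 copies. Xlr3, Xlr4 and Xlr5 copies lie interleaved in 219 kb of the X chromosome (chrX:73074345-73292976), with further pseudogene copies outside it. The Xlr5 sum was 263, 320, 332 and 290 counts in the WT-labelled libraries and 178, 125, 212 and 196 in the KO-labelled ones. The groups did not overlap, and KO replicate 2 was lowest. The sum fell from 16.5 ± 0.792 to 9.88 ± 1.67 CPM, a log2 fold change of -0.73 ± 0.09 (SE, adjusted p = 8.29e-12), or 1.66-fold.

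All 5 Xlr5 copies had negative fold changes, and 4 were called. Xlr5b had 76, 86, 86 and 81 counts against 52, 36, 57 and 53, with no overlap (log2 fold change -0.70, adjusted p = 0.0016). Xlr5c had 71, 90, 84 and 85 against 50, 40, 51 and 53, also with no overlap (-0.74, adjusted p = 0.000856). Xlr5e-ps had 34, 36, 34 and 38 against 16, 9, 23 and 21 (-1.02, adjusted p = 0.00696), with an adjusted p of 0.0709 when KO replicate 2 was left out. In all 3 copies KO replicate 2 had the lowest count. The annotated Xlr5a gene (chrX:73107635-73292976) contains Xlr5b, Xlr5c, Xlr3b, Xlr3c, Xlr4b and Xlr4c, and shares 101 exon bases with Xlr5c. Xlr5a had 60, 89, 104 and 59 counts against 51, 36, 60 and 52 (-0.61, adjusted p = 0.0122). Its call was lost with the Wald test of DESeq2 (adjusted p = 0.0588), with limma voom (0.0589) and without WT replicate 3 (0.169) or KO replicate 2 (0.0926). Xlr5d-ps had a log2 fold change of -0.84 (adjusted p = 0.135) and was not called.

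The Xlr4 sum was 178, 206, 140 and 152 counts against 152, 128, 140 and 127, with overlapping groups. Its log2 fold change was -0.27 ± 0.11 (SE, adjusted p = 0.162), which passed when WT replicate 3 (-0.37, adjusted p = 0.0489) or KO replicate 1 (-0.37, adjusted p = 0.0482) was left out. Xlr4a, Xlr4b, Xlr4c and Xlr4e-ps had log2 fold changes of -0.24, -0.26, -0.25 and -0.44, with no call (adjusted p = 0.543 to 0.695). Xlr4b and Xlr4c, like Xlr3b, are known as imprinted genes in mouse brain.

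The Xlr3 sum moved the other way. It had 442, 482, 351 and 379 counts in the WT-labelled and 464, 509, 523 and 506 in the KO-labelled libraries, with WT replicate 1 reaching into the KO-labelled range and WT replicate 3 lowest. The sum rose from 22.7 ± 3.42 to 28.04 ± 1.87 CPM, a log2 fold change of 0.30 ± 0.07 (SE, adjusted p = 0.00088). It did not pass when WT replicate 3 was left out (0.22, adjusted p = 0.0554) or when Xlr3b, the copy with most counts, stood in for the sum (0.25, adjusted p = 0.160). Singly, Xlr3a, Xlr3b, Xlr3c, Xlr3d-ps and Xlr3e-ps had log2 fold changes of 0.29, 0.25, 0.33, 0.46 and 0.68, with no call (adjusted p = 0.124 to 0.403). Without WT replicate 1, in which Xlr3e-ps had 22 counts against 4, 7 and 8 in the other WT-labelled libraries, Xlr3e-ps (1.42, adjusted p = 0.0436) and Xlr3c (0.44, adjusted p = 0.0416) were called higher. Xlr3c, the highest of the family per length, had 113, 120, 81 and 86 counts against 104, 125, 126 and 140, with overlapping groups.

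**Figure D4:**
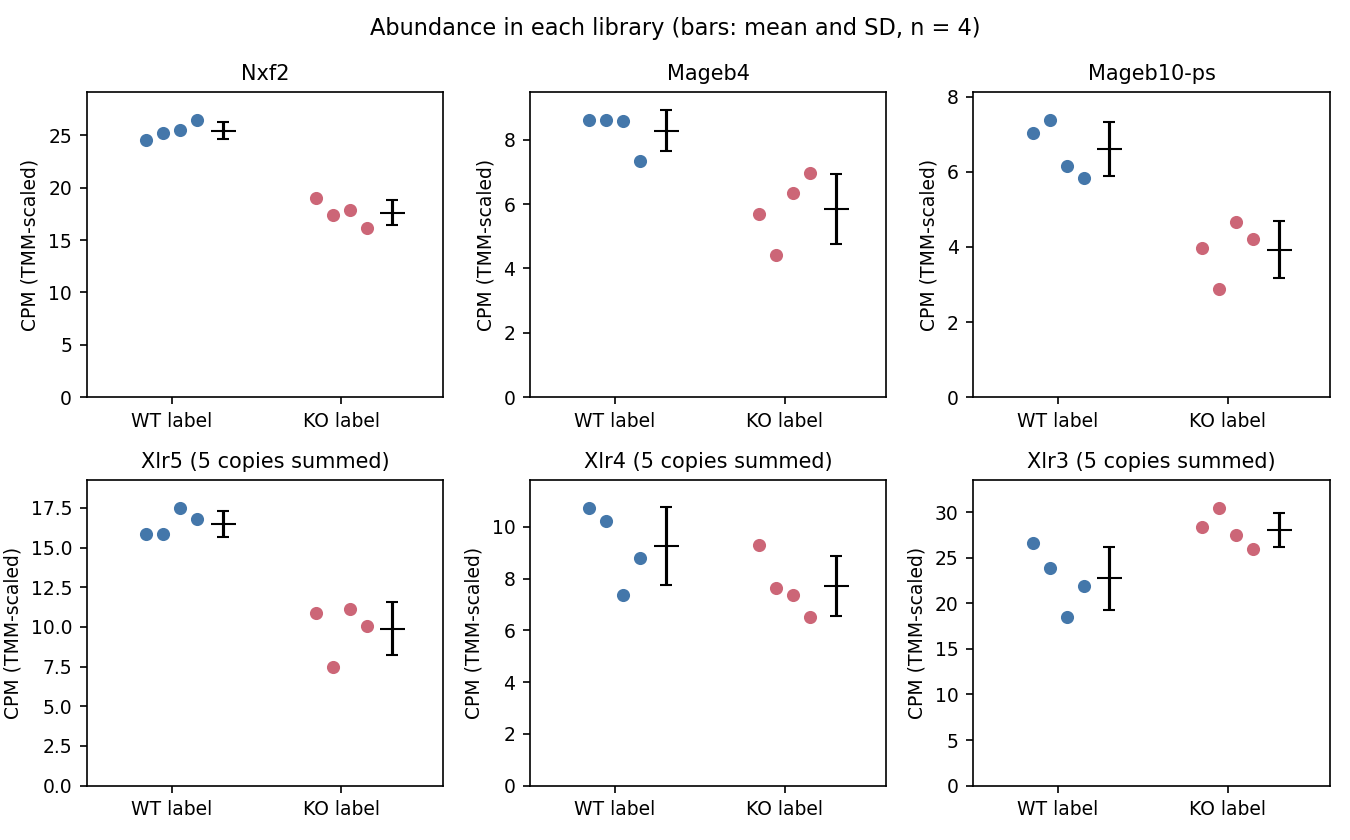
TMM-scaled CPM of 3 single genes and 3 subfamily sums in each of the 4 WT-labelled and 4 KO-labelled libraries (points), with mean and SD beside them; axes start at 0. Nxf2, Mageb4, Mageb10-ps and Xlr5 separate the groups, whereas Xlr4 and Xlr3 overlap.

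Ratios within a library do not depend on its scaling. The 5 ratios given here were chosen after the values were seen, so they are a description with no test. The ratio of Xlr5 to Xlr3 counts was 0.595, 0.664, 0.946 and 0.765 in the WT-labelled libraries and 0.384, 0.246, 0.405 and 0.387 in the KO-labelled ones, with no overlap. The ratio of Xlr4 to Xlr3 was 0.408 ± 0.0133 against 0.274 ± 0.0363 (SD, n = 4 per group), also with no overlap. The WT-labelled libraries, whose Xlr3 and Xlr4 levels varied, thus held this ratio within 0.399 to 0.427.

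The ratio of Xlr5 to Xlr4 was 1.83 ± 0.408 against 1.30 ± 0.275, with overlapping groups. Nxf2 over Nxf3 was 10.3 ± 1.91 against 6.22 ± 1.17, with no overlap. Mageb4 over Mageb16 was 2.59 ± 0.720 against 1.89 ± 0.300, with overlap.

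**Figure D5:**
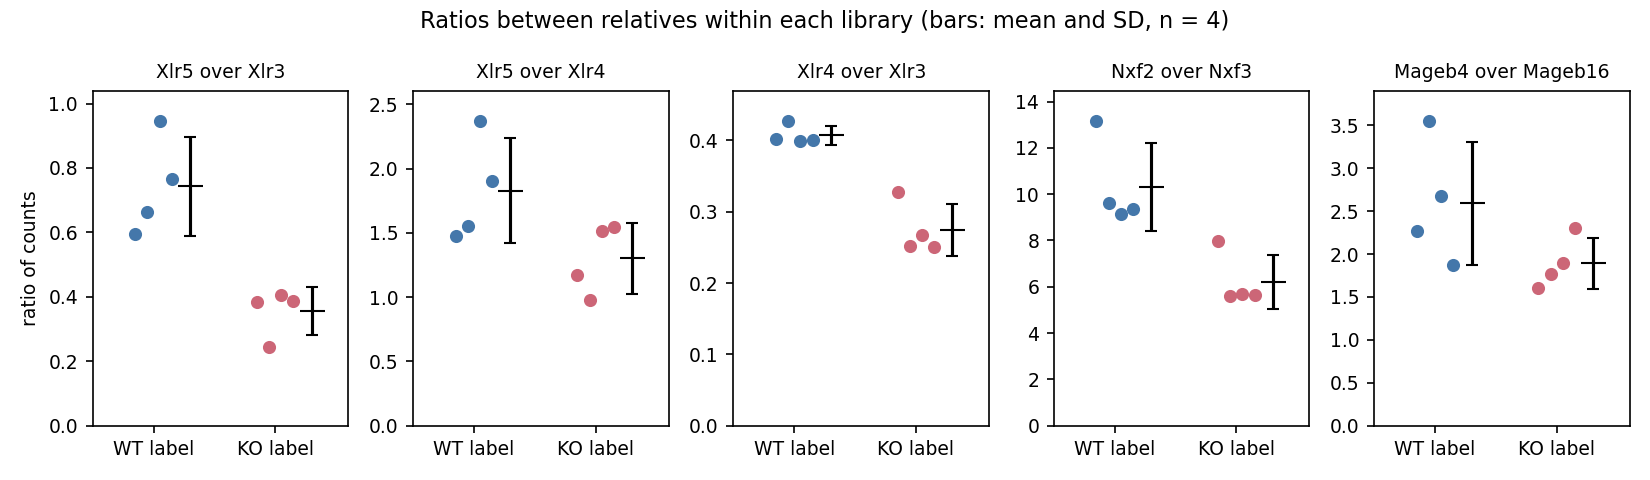
Ratio of counts (y axis, starting at 0) between related genes or subfamily sums in each WT-labelled and KO-labelled library (points), with mean and SD. Xlr5 over Xlr3, Xlr4 over Xlr3 and Nxf2 over Nxf3 separate the groups, and the other 2 ratios overlap.

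The single gene Xlr, founder of the family name (X-linked lymphocyte-regulated), had 6 to 20 counts per library (log2 fold change -0.60, adjusted p = 0.510). Of its relatives, Slxl1, a gene of spermatids, had 6, 8, 8 and 12 counts against 7, 1, 3 and 4 and was not tested. Of 6 tested synaptonemal genes related to or partnering SYCP3, 0 were called. The highest were Sycp1 and Sycp2, which encode structural proteins of the complex, at 21.2 ± 1.86 against 21.8 ± 1.01 and 19.8 ± 0.539 against 20.6 ± 2.19 CPM. Within 500 kb of the Xlr cluster, 24 other genes were tested and 1 was called, the predicted gene Gm18336 (log2 fold change -1.06, adjusted p = 0.000667).

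Fthl17 genes are kin of the ferritin heavy chain. The 9 copies summed to 16, 85, 47 and 77 counts against 69, 50, 51 and 105, with WT replicate 1 lowest and groups that overlapped (log2 fold change 0.32 ± 0.46, SE, adjusted p = 0.834). Fthl17-ps1, highest per length, had 2, 13, 7 and 10 counts against 12, 6, 7 and 15. Fthl17b, Fthl17c, Fthl17f and Fthl17-ps1 were tested singly, with log2 fold changes of 0.25, 0.15, 0.37 and 0.35 and no call (adjusted p = 0.752 to 0.910). Both somatic ferritin genes tested fell: Fth1, the heavy chain, from 113 ± 1.34 to 94.9 ± 1.31 CPM (log2 fold change -0.25, adjusted p = 2.22e-10), and Ftl1, the light chain, from 80.1 ± 4.59 to 72.2 ± 2.96 CPM (-0.15, adjusted p = 0.00848).

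Tex13b, a testis-expressed gene, had 43, 59, 64 and 33 counts against 45, 33, 30 and 38, with WT replicates 1 and 4 within the KO-labelled range on the CPM scale (log2 fold change -0.41, adjusted p = 0.320). The summed Tex13c copies were not tested.

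Of 21 other genes listed as X-linked germline genes and found in the table, 20 lie on chromosome X (Rbmxl2 does not). Whether the listed genes are confined to germ cells was not tested. Of 12 tested, Rbmxl2 among them, 0 were called, with a median log2 fold change of -0.08. The highest were Gspt2, a translation termination factor gene, at 15.99 ± 1.77 against 15.2 ± 0.748 CPM, and Zfp711, a zinc finger gene, at 15.6 ± 1.21 against 14.9 ± 1.66 CPM. Of 20 genes of PRC1.6 and of DNA and histone methylation that silence germline genes, 2 fell, 1 rose and 17 were not called, with a median of 0.02. Dnmt3l, whose product assists the de novo DNA methyltransferases in germ cells, fell from 11.05 ± 0.639 to 8.56 ± 0.611 CPM (log2 fold change -0.37, adjusted p = 0.0125). Wdr5, a PRC1.6 and histone methyltransferase subunit, fell by 0.20 on the log2 scale (adjusted p = 0.0219), and Setdb1, a histone H3 lysine methyltransferase, rose by 0.13 (adjusted p = 0.00889).

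Markers of several other cell types moved with the labels beside these results, though not those of every list. Of all genes tested, 2.80% were called lower and 2.35% higher. Summed CPM of the 6 erythroid markers was 210 to 226 in the WT-labelled libraries and 82.1 to 86.5 in the KO-labelled ones (4 of 6 fell), and that of 11 markers of tubular and duct epithelium 36.2 to 39.9 and 81.1 to 91.3 (11 of 11 rose). For 6 Leydig markers it was 3051 to 3082 and 2771 to 2809 (5 of 6 fell), and for 6 muscle markers 222 to 228 and 138 to 146 (3 of 5 tested fell). For 8 Sertoli markers it was 609 to 632 and 588 to 610 (2 of 8 fell), and for 6 stromal markers 6192 to 6262 and 5990 to 6147 (0 of 6 called). For 6 endothelial markers it was 168 to 185 and 188 to 196 (2 of 6 rose), for 6 leukocyte markers 25.1 to 27.6 and 18.9 to 23.6 (1 of 4 tested fell), and for 12 germ cell markers 172 to 185 and 165 to 175. No marker of these lists was at 0. The mean log2 CPM of 52 somatic markers was 4.56 to 4.59 in the WT-labelled libraries and 4.62 to 4.69 in the KO-labelled ones. It averages lists that rose (epithelium) and lists that fell (erythroid, Leydig, muscle), so it is no measure of somatic content. With this mean as a covariate, 0 members were called. The 7 members called without it had log2 fold changes of -1.54 to -0.25 with it, all negative, and their standard errors grew by a median of 2.38 times. The covariate correlated with the label (r = 0.90 over 8 libraries, with no overlap between groups), so that label and covariate cannot be told apart.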

How the data were processed

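The counts of reads per gene were deposited by the authors as 1 table without normalization, together with an exon length per gene. Per the submitters' processing notes, STAR 2.5.2b, Subread, featureCounts and DESeq2 were used with GRCm38, with no roles or settings; the use of strand and the treatment of multi-mapping reads are not given in the sources used here. Per the labels' protocols, 1 ng of total RNA per library went into a stranded pico-input kit. Symbols came from GENCODE M21 (55141 of 55487 IDs matched), and all 59 members had positions identical to it.

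Counts were tested in R 4.3.3 with edgeR 4.0.16 (filterByExpr, TMM, robust quasi-likelihood, two-sided) on all genes, and again with copies summed by subfamily. Alternatives included DESeq2 1.42.0 and limma 3.58.1. The procedure was tested on simulated data. The common coefficient of biological variation was 3.86%.

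Members and lists were chosen with earlier results of these data known. By rule, every tested member or sum is named, with counts in each library for those called and for the highest per length in each family; from each pathway list up to 4 called genes are named, or the 2 highest. Promoters are RefSeq's (GRCm38.p6).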

Additional observations from a re-analysis of the deposited data

Results flagged for a closer look

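In Mageb4, WT replicate 4 stood apart from its group, at 7.35 CPM against 8.61, 8.62 and 8.58 in the other WT-labelled libraries. The gap to the nearest of the others was 0.965 of the group's whole range, above Dixon's critical value for 4 samples. Over the 68 groups of 4 libraries examined, chance flags about 1 in 20, and this was the 1 group flagged. The KO-labelled libraries all lay below this value.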

How the results depend on the processing

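Under 3 other scalings, 2 other filters, DESeq2, limma voom, non-robust dispersion and the replicate block, 6 to 7 members were called lower and 0 higher, and 4 sums lower and 1 higher. Over all genes 1193 were called, 785 by DESeq2. With the somatic marker covariate 87 genes, 0 members lower, 0 sums lower and 0 sums higher were called, while the 7 called members stayed at -1.54 to -0.25. With 1 library left out, members called lower numbered 4 to 7 (4 without KO replicate 2), members called higher 0 to 2 (without WT replicate 1, Xlr3c and Xlr3e-ps), sums lower 3 to 5 and sums higher 0 to 1 (0 without WT replicate 3). The replicate block gave 1249 genes, 7 members lower, and 4 sums lower and 1 higher; same-numbered libraries had deviations correlated at -0.01 to 0.02, so the numbers do not pair them. Of 609 single values under alternatives, 571 kept direction and side of the threshold, 18 lost a call, 4 gained one and 16 changed sign, all 16 in genes or sums not called. With the covariate these were Mageb16-ps2 (-0.15), Tex13b (0.65), Xlr (0.47), Xlr4a (0.27) and the sum of Mageb1 to Mageb3 (1.04). With 1 library left out they were Fthl17b (-0.021 to 0.67), Fthl17c (-0.14 to 0.35, with 2 values below 0), Mageb16-ps2 (-0.029 to 0.20), Mageb18 (-0.21 to 0.092, with 4 above 0) and the sum of Mageb1 to Mageb3 (-0.17 to 0.21, with 3 above 0). The cause was not tested. Scaling moved the median log2 fold change of all genes between -0.01 and 0.01. Depth limits the 32 untested members.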
